A study of Mus musculus with 6 samples.

Results

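The 64 DNA sequences of the R6 library were measured with recombinant mouse Gli protein in unmethylated form and after treatment with the methyltransferase M.SssI. R6 varies 3 adjacent bases of a Gli site, and all 64 combinations were present in both forms, out of 2094 sequence lines in the 3 tables of the series. Members were taken by library and block heading with no cut on a measured value, though earlier results of these data were known. The labels describe double-stranded libraries that carry a barcode for the methylation state. They list all forms in the composition of the same reaction, which also held top-strand hemimethylated and duplex methylated R6. DNA that ran with the protein on a 9% gel (bound) and DNA that ran free (unbound) was cut out, amplified by PCR and sequenced. The groups are thus the bound and the unbound fraction of the R6 reaction, with 1 sample each, named Gli1 in the titles and Mouse Gli in the sample characteristics.

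Gli proteins are zinc finger transcription factors that turn Hedgehog signals into changes of gene expression. A zinc finger that contacts bases reads a few neighbouring base pairs, mostly from the major groove, where the methyl group of methylcytosine also lies. M.SssI, a bacterial enzyme, methylates the cytosine of CpG on each strand, whatever the surrounding bases. A site without CpG is thus not a target of the enzyme, and such sites serve here as the control within the treated block. The extent of methylation reached is not given in the sources used here.

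The table lists only the 3 varied bases, so the bases beside them decide which sequences hold a CpG. R6 values of the R4-R6 reaction, where the same bases were varied within longer sequences, placed them. They followed those of the 7-base sequences with C in front and GAA behind, with r = 0.996 (n = 64), and differences on the natural log scale had an SD of 0.08. With A, G or T in front, r lay between 0.893 and 0.930. Only the base in front differed between these comparisons, so other bases behind were not compared. Sequences share libraries and are not replicates in these values. Counting from 1 at the start of the 16-base site, the varied bases were placed at 11, 12 and 13. The base before them was taken as C (position 10) and the base after them as G (position 14). A first base G then makes a CpG at position 10, and a last base C makes one at position 13, positions being those of the C.

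The sequences below show 1 or more sites of each CpG class, and the results turn on them. They run from position 1 to 16 and were read from the 16-base table of the series. Only positions 10 to 16 were matched to R6, and the first 9 bases are those of that table. Capitals mark each CpG.
No CpG, ATT: gaccacccacattgaa
CpG at position 10, GTT: gaccacccaCGttgaa
CpG at position 13, ATC: gaccacccacatCGaa
CpG at position 13, CAC: gaccacccaccaCGaa
CpG at positions 10 and 13, GAC: gaccacccaCGaCGaa
CpG at positions 10 and 13, GTC: gaccacccaCGtCGaa
CpG at position 11, CGT: gaccacccacCGtgaa
CpG at positions 11 and 13, CGC: gaccacccacCGCGaa
CpG at position 12, ACG: gaccacccacaCGgaa
CpG at positions 10 and 12, GCG: gaccacccaCGCGgaa

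Of the 64 sequences, 30 held no CpG and 34 held at least 1. There were 11 with a CpG at position 13 only and 11 at position 10 only. Position 11 only and position 12 only had 3 sequences each. A further 4 held CpGs at positions 10 and 13, while GCG held them at 10 and 12 and CGC at 11 and 13.

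The unmethylated block had 114228 bound and 40596 unbound reads, and the M.SssI block had 174691 and 90103. The lowest of the 4 counts of any sequence was 125, so all 64 passed the minimum of 10 reads. Binding is given as the bound count over the unbound count, a relative value without a unit. The change on treatment is the natural log of the treated over the unmethylated ratio, after adding 0.5 to each count. From it the median of the 30 sequences without CpG, 0.148, was subtracted. Errors are counting standard errors (SE) and cover counting error only, since reads amplified by PCR are not independent molecules unless molecules were tagged first. Each block was measured once, so no difference here has a replicate check and no p-value is given.

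After treatment 27 of 64 sequences (42.2%) were lower by more than 1.5-fold and by more than 2 counting SE, and 0 (0.0%) were higher by as much. All 27 held a CpG at position 10 or 13, and they were 27 of the 28 sequences of that kind. None of the 30 sequences without CpG passed in either direction, and neither did the 6 whose only CpG lay at position 11 or 12, though CGT, with its CpG at position 11, did so with R6 of the R4-R6 reaction as reference. The sequence nearest inside the threshold was GCG, 1.59-fold lower, and the nearest outside were GGT, 1.44-fold lower, and CGG, 1.39-fold lower. Without centring, 24 sequences were lower and 0 higher. Scaled to block totals instead, 19 sequences were lower and 31 higher. Those totals contain the sequences that fell, and this scaling puts the median of the sequences without CpG at 0.52.

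After centring, sequences without CpG differed little between the blocks. ATT, the strongest of them, had 2105 bound and 402 unbound reads unmethylated, a ratio of 5.24, and 6283 and 1055 reads treated, a ratio of 5.96. Its centred change was -0.02 ± 0.06. The weakest, CCT, went from 0.911 to 1.06, a change of 0.00 ± 0.07. The largest rises were those of CTT, 0.09 ± 0.06, then AAT, 0.08 ± 0.07, and CTG, 0.07 ± 0.05. The largest falls were AAG, -0.16 ± 0.06, then TGA, -0.12 ± 0.06, and TTG, -0.08 ± 0.05. Only AAG lay more than 2 counting SE from 0 among the 30, whose SD was 0.06 against a median counting SE of 0.06.

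The 16 sequences ending in C, which all form a CpG with the fixed G, lost the most binding. Before treatment their ratios ran from 0.806 to 11.9 with a median of 3.69, and after it from 0.134 to 1.11 with a median of 0.340. The other 48 sequences had medians of 2.83 and 3.09. Before treatment 7 of the 16 ranked among the strongest 16 of the library, GTC at rank 2 and GAC at rank 3. After treatment 0 of them did, and 15 of the weakest 16 sequences ended in C, the remaining place being taken by CGG. ATC, at rank 46, was the only sequence ending in C that bound above the weakest 16.

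The same counts can be given as shares of reads, which restate these ratios and are no separate support. Sequences ending in C made up 24.1% of bound reads in the unmethylated block (95% Wilson interval 23.9 to 24.4) and 5.96% in the treated block (5.85 to 6.07). Among unbound reads their share went from 17.7% (17.3 to 18.0) to 29.0% (28.7 to 29.3). Over both fractions together it went from 22.4% to 13.8%, while that of sequences without CpG went from 40.3% to 52.1%. The summed share depends on how deeply each fraction was sequenced, and its part in the changes was not tested.

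With a CpG at position 13 alone, the 11 sequences fell by between 6.47-fold (ATC) and 22.0-fold (CAC). ATC, the strongest of the 11, had 1773 bound and 285 unbound reads before treatment and 1580 and 1419 after. Its ratio fell from 6.22 to 1.11, a change of -1.87 ± 0.07. CAC had 1306 and 261 reads before treatment and 294 and 1119 after, so that its ratio fell from 5.004 to 0.263, a change of -3.09 ± 0.09. These sites differ only at positions 11 and 12, and CAC, the weaker of them before treatment, lost more.

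The middle base went with the size of this fall. With A at position 12 the 3 sequences changed by -2.48 for TAC, -2.42 for AAC and -3.09 for CAC, with a mean of -2.66 ± 0.05. With G there, TGC changed by -2.42 and AGC by -2.18, a mean of -2.30 ± 0.04. The C group had a mean of -1.98 ± 0.06, from -2.07 for CCC to -1.92 for ACC, with TCC at -1.94. With T the 3 values were -1.93 for CTC, -1.92 for TTC and -1.87 for ATC, a mean of -1.91 ± 0.04. The values with A or G in the middle thus all lay below those with C or T. With only A or T as the first base, which leaves out CAC, the means were -2.45 for A, -2.30 for G, -1.93 for C and -1.90 for T. Before treatment the C group had low ratios, from 0.806 (TCC) to 1.57 (ACC), while the T group ran from 2.58 (TTC) to 6.22 (ATC). The part of starting strength in these falls was not tested. The gap between the nearest, AGC at -2.18 ± 0.07 and CCC at -2.07 ± 0.11, was within 2 counting SE.

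Among sequences with a first base C and no CpG at position 11, only CAC, a single sequence, fell further than its partners. CAC differed from the mean of AAC and TAC by -0.65 ± 0.11 on the natural log scale. CCC and CTC lay within 2 counting SE of their partners with A or T first, at -0.14 ± 0.13 and -0.04 ± 0.09. CGC, which carries a further CpG at position 11, fell 21.8-fold from 4.66 to 0.247 and differed from AGC and TGC by -0.79 ± 0.09. The extra fall of CAC, which has no CpG at position 11, was of similar size.

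Paired sequences that differ only in the last base gave the same picture without centring. Over 16 contexts, unmethylated C at position 13 bound about as well as T, with a median log difference of 0.09 and a range from -0.28 to 0.42. C was higher than T by more than 2 counting SE in 6 contexts and lower in 2. After treatment C lay below T in all 16 contexts, by a median of 9.57-fold and by between 5.35-fold and 14.9-fold. The change of the C sequence minus that of the T sequence had a median of -2.23, from -3.12 (CA in front) to -1.85 (AT in front). Thymine carries a methyl group at the same place on its ring as methylcytosine, as background, but pairs with adenine in place of guanine. Against A the median was -2.27, with all 16 contexts below 0.

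At position 13 the mean log ratio of C went from 1.27 ± 0.74 (SD, n = 16 sequences), the highest of the 4 bases, to -1.10 ± 0.58, the lowest. Means for the other bases moved little, from 1.18 to 1.13 for A, from 0.51 to 0.49 for G, and from 1.20 to 1.15 for T. These means are not centred, and the SDs are over sequences. The means for A, G and T take in sequences with G first, which all fell before centring, such as GAA by -0.82. Most of their other sequences rose, such as CTT by 0.24, so their small shifts are net values.

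A CpG at position 10 alone lowered binding less, by between 1.44-fold (GGT) and 2.64-fold (GAA) in 11 of 11 sequences, or in 9 of 11 when scaled to block totals, where GGG and GGT lay above 0. GTT, the strongest site of the library in both blocks, had 4056 bound and 330 unbound reads unmethylated and 7724 and 1164 treated. Its ratio fell from 12.3 to 6.64, a change of -0.76 ± 0.07. GAA went from 10.4 to 4.55, a change of -0.97 ± 0.09. GTA, at -0.65 ± 0.07, moved from rank 5 to rank 2. The falls at position 10 did not reach those at position 13, since the largest, 2.64-fold, was under the smallest there, 6.47-fold.

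The middle base also went with the size of this fall, in another order. With C in the middle, GCA changed by -0.96 and GCT by -0.94, a mean of -0.95 ± 0.04. The 3 sequences with A in the middle, GAA, GAG (-0.92) and GAT (-0.80), had a mean of -0.90 ± 0.04. With T the mean was -0.72 ± 0.04 over GTT, GTA and GTG (-0.75). With G it was -0.47 ± 0.03, from -0.53 for GGA through -0.51 for GGG to -0.36 for GGT. The means for C and A at position 10 were within counting error of each other, and both lay below those for T and G. At position 13 the mean fall with C in the middle was smaller than with A or G.

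Before treatment G at position 11 gave the highest ratio of the 4 bases in 16 of 16 contexts, and after it in 6 of 16. In the 12 contexts with A, G or T as the last base, G exceeded A by a median log difference of 0.85, or 2.33-fold, with values from 0.23 to 1.30. After treatment the median was 0.07, or 1.07-fold, with values from -0.28 to 0.37. G then lay above A by more than 2 counting SE in 6 of these contexts and below it in 3. Over T as the first base, G kept more of its lead in these 12 contexts. The median went from 1.08, or 2.96-fold, to 0.29, or 1.34-fold, with 7 contexts above and 2 below 0 by more than 2 counting SE. In the 4 contexts with C as the last base, G had exceeded A by a median of 0.64. After treatment it lay below A in all 4, by a median of 1.71-fold and by more than 2 counting SE in 3. Against T as the first base, 2 of these 4 contexts were below 0 after treatment and 2 above, with a median of 0.06.

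The 4 sequences with CpGs at both ends had the deepest falls beside CAC and CGC. GAC had 2248 bound and 198 unbound reads unmethylated, and 508 and 1507 treated. Its ratio fell from 11.4 to 0.337 and its rank from 3 to 57 of 64, a centred fall of 38.9-fold (-3.66 ± 0.09). GTC, with 3215 and 270 reads before treatment and 1311 and 2011 after, fell 21.1-fold from 11.9 to 0.652. GGC fell 23.1-fold, from 5.30 to 0.266, and GCC 21.9-fold, from 2.92 to 0.154. GTC and GAC started within counting error of each other, and GTC was the strongest of the 4 after treatment.

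Some of these falls were larger than the 2 single falls added on the log scale. For each middle base, the sum was taken from the sequences with A or T as the first base (CpG at position 13 only) and with A or T as the last (CpG at position 10 only). For GAC the sum was -3.33, or 28.0-fold, and the measured change departed from it by -0.33 ± 0.13. GTC departed by -0.47 ± 0.10, with a sum of 13.2-fold against 21.1-fold measured. GGC departed by -0.42 ± 0.09 and GCC by -0.20 ± 0.12, the last within 2 counting SE of 0. The value for GAC rests on leaving out CAC, the third sequence with A in the middle. With C also allowed as the first base, a choice made after the values were seen, GAC departed by -0.10 ± 0.12 and GCC by -0.16 ± 0.11, both within counting error. GTC then departed by -0.43 ± 0.10, and GGC was as before. The median departure was -0.38, and with R6 of the R4-R6 reaction as the reference it was -0.25, with all 4 sequences below 0. GCC, at -0.10 ± 0.10 against that reference, was within 2 counting SE of 0.

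CpGs inside the varied bases went with small changes where they were the only CpG, and these depended on the partner. CGC and GCG, which hold a second CpG, differed more from their partners, by -0.79 ± 0.09 and 0.48 ± 0.06. With a CpG at position 11 alone, CGG changed by -0.33 ± 0.05, CGT by -0.22 ± 0.06 and CGA by -0.15 ± 0.07, a median of -0.22. Scaled to block totals that median was 0.30, so its direction rests on the sequences without CpG as reference. Set against A or T as the first base, which needs no such reference, CGG differed by -0.30 ± 0.06 and CGT by -0.19 ± 0.07. The difference of CGA, -0.12 ± 0.08, was within 2 counting SE.

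At position 12 the 3 sites had small positive changes, with a median of 0.13. The median was 0.28 without centring, 0.65 with block totals and 0.24 against R6 of the R4-R6 reaction, where sequences without CpG reached 0.30. ACG changed by 0.21 ± 0.06, CCG by 0.13 ± 0.06 and TCG by 0.10 ± 0.05, the last within 2 counting SE of 0. ACG had 1055 bound and 832 unbound reads before treatment and 2099 and 1156 after, ratios of 1.27 and 1.82. GCG, which also holds the CpG at position 10, changed by -0.47 ± 0.05, from 2.56 to 1.86. Its partners GCA and GCT, with the CpG at position 10 only, fell by more, and GCG lay above their mean by 0.48 ± 0.06. For ACG the same difference from the sequences ending in A or T was 0.18 ± 0.08, while CCG, at 0.13 ± 0.08, and TCG, at 0.12 ± 0.07, were within 2 counting SE of their partners. AAG, which has no CpG and was singled out after its value was seen, differed from AAA and AAT by -0.22 ± 0.08, as much in size as ACG. With other middle bases after a first G, where a last G makes no new CpG, the difference was -0.03 ± 0.08 for GAG, -0.06 ± 0.05 for GGG and -0.04 ± 0.07 for GTG.

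Between the change and the unmethylated log ratio, r was -0.647 over the 16 sequences ending in C and -0.606 over the other 48. Both sets mix CpG classes that fell by different amounts, and 10 of the strongest 16 sites held a CpG at position 10. Over the 34 sequences with any CpG r was -0.291, and over all with a CpG at position 10 it was -0.243. With a CpG at position 13 only, ATC, the strongest, fell least. This is a description across sequences that share their libraries. The unmethylated ratio enters both measures with opposite sign, so its counting error alone moves r below 0. The ratios of the 16 sequences ending in C spanned 14.8-fold before and 8.29-fold after treatment, and those of the 48 spanned 13.9-fold and 6.84-fold. Between the blocks, log ratios had r = 0.635 over the 16 and 0.873 over the 48.

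R6 of the R4-R6 reaction gave a reference for the treated block that shares no reads with the unmethylated block. Its heading names no methylation state, and the characteristics of its samples describe another library, so it was used as a comparison only. Its log ratios had r = 0.989 with those of unmethylated R6 over 64 sequences, with a slope of 1.21, so it spreads strong and weak sites further apart. Against it the median change was -2.17 at position 13, -1.03 at position 10 and -3.41 with CpGs at both. All 27 sequences that were lower past 1.5-fold were so against this reference too, with CGT (1.78-fold) and GGT (2.08-fold) in addition. The 30 sequences without CpG spread more widely here, from -0.36 to 0.30. GAC fell 54.2-fold by this measure, CAC 30.2-fold, ATC 7.76-fold and GTT 2.80-fold.

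Top-strand hemimethylated R6 of the same reaction had smaller median centred changes for sequences with a CpG at position 10 or 13. Centring removes any change that all sequences share. As a whole the hemimethylated block had 52135 bound and 43448 unbound reads, a ratio of 1.20. That ratio was 2.81 in the unmethylated and 1.94 in the M.SssI block, and the cause of these differences was not tested. The hemimethylated block was compared with the same unmethylated block, so the values share that block and are given side by side only. Sequences with a CpG at position 13 only had a median of -0.06 there, from -0.54 to 0.31, against -2.07 in the M.SssI block. For position 10 only the median was -0.15, from -0.42 to 0.40, against -0.76. For CpGs at both positions it was -0.21 against -3.11. The 30 sequences without CpG spread from -0.39 to 0.56 in the hemimethylated block, more widely than the -0.16 to 0.09 seen after M.SssI.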

How the data were processed

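Bound and unbound DNA from gel shift reactions was sequenced, per the labels' protocols. The authors deposited whole-number read counts per sequence in each fraction. They also deposited the ratio of bound to unbound counts and, in a column without a heading, minus its natural log. Both differed from values computed from the counts by at most 0.0005. No scaling for depth was applied by the authors. How reads were counted and filtered is not given in the sources used here.

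Only the counts were used. Median reads per sequence were 1672 bound and 534.5 unbound in the unmethylated block and 2549.5 and 1270 in the M.SssI block, which gave median counting SEs of 0.0504 and 0.0365 for a log ratio. The counting SE was the square root of the summed reciprocal counts. Sequences needed 10 reads in each of 4 counts, and 0.5 was added before logs. With 1 library per fraction no test was made, and a 1.5-fold threshold with 2 counting SE stood in for it. The samples were grouped by reaction and fraction from their titles.

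The members, classes and comparisons were chosen with earlier results of these data known. Any sequence with a CpG could be named. Of the others, the 3 highest and 3 lowest changes and the strongest and weakest site were named. Alternatives covered the pseudocount, count minimum, centring, reference block, definition of CpG, threshold, matched base, weighting and weak sequences. The calculation was tested on simulated counts. Python 3.11.15 with numpy 2.4.6, pandas 2.3.3 and scipy 1.17.1 was used. The duplex methylated block was not used here.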

Additional observations from a re-analysis of the deposited data

How the results depend on the processing

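No reaction was repeated, so every value rests on 1 library per fraction, and depth limits single changes to counting SEs of about 0.06. Of 82 alternative values, 54 stayed within the counting interval of the reported value (counts within 1.5 times), 27 moved beyond it and 1 reversed. Pseudocounts of 0 and 1 and a minimum of 100 reads moved none of them. The number of lower sequences ran from 19 (block totals) to 29 (a lower fold threshold, or R6 of the R4-R6 reaction as reference).

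Median changes at position 13, position 10 and both were -1.92, -0.62 and -2.96 without centring. They were -1.55, -0.24 and -2.59 with block totals, -2.17, -1.03 and -3.41 against R6 of the R4-R6 reaction, and -2.19, -0.69 and -3.19 as weighted means. Without the weakest 25% of sequences those at positions 13 and 10 were -2.32 and -0.81. At position 11 the median was -0.072 without centring and reversed to 0.30 with block totals. At position 12 it was 0.28 without centring, 0.65 with block totals, 0.24 against the other reference and 0.22 with CpG counted inside the varied bases only. Block totals gave 31 higher sequences. By construction this scaling sets the fall of CpG sequences against the rest, while the cause of the other shifts was not tested.

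The C against T difference was -2.36 without the weakest 25% and -2.32 as a weighted mean. The G against A difference, -0.82, was -0.92 without the weakest 25%, -1.08 against the other reference, -0.77 as a weighted mean and -0.72 with T in place of A. The departure from additivity was -0.25 against the other reference and -0.29 with C also as first base, an alternative chosen after seeing the data. With CpG counted inside the varied bases only, no sequence has a CpG at position 10 or 13, so those classes gave no value.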

Other observations

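Among the 30 sequences without CpG, the small changes on M.SssI treatment differed by first base. With T at position 11, 9 of 11 sequences lay below the median of the 30, with values from -0.12 to 0.02 and a median of -0.06. With C at position 11, 7 of 8 lay above it, with values from -0.01 to 0.09 and a median of 0.03. Sequences with A there lay on either side, 5 below and 6 above. These values are close to the median counting SE, 0.0578 for T and 0.0695 for C. Against R6 of the R4-R6 reaction the pattern was weaker, with 7 of 11 T sequences below 0 and 4 of 8 C sequences above it. This pattern was noticed after the values were seen and was not tested.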
